A study of Mus musculus with 15 samples.

Results

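The comparison asked what 3 months of environmental enrichment left in the DNA methylation of the dentate gyrus after 3 further months without it. A group of 5 female C57BL/6JRj mice that had lived in an enriched environment for 3 months and then in standard cages for 3 months, called the withdrawal group here, were set against 5 females of that strain kept in standard cages for 6 months. All were 7.5 months old, and they are 10 of the 15 mice of the series. The remaining 5 mice spent all 6 months in enrichment, and their values stand beside some results without a test. Each sample is micro-dissected dentate gyrus, a mixture of cell types, so a different mixture of cells and a different methylation within cells cannot be told apart. The labels name no cage, litter or sequencing batch, so mice of a group may share a cage, and p-values measure the spread between these mice.

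Methylation was read by reduced representation bisulfite sequencing (RRBS), in which a restriction enzyme enriches CpG-rich fragments and bisulfite turns unmethylated cytosines, but not methylated ones, into uracil. The deposited value is the percent of methylated reads at 1 cytosine on 1 strand in 1 mouse. The positions studied were the CpG rows with values in at least 3 mice of each group: 455836 of the 2918114 cytosine positions in the table, and no CpG row fell short of that. Leaving out 172 on the Y chromosome and the mitochondrial genome, 455664 sites were used, of which 156497 had a value in all 10 mice. Sites numbered 137860 at gene starts (within 1 kb of the 5′ end of a protein-coding gene), 160111 in the rest of gene bodies and 157693 between genes. The percentages came without read counts, which leaves their depth unknown. As a partial view of it, standard mouse 1 had a value at 297716 sites (34.7% missing), the other standard mice at 386520 to 410422, and the withdrawal mice at 389186 to 443956.

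CpG methylation is copied at cell division by a maintenance enzyme and can outlast the signal that set it. CpG-rich gene starts are usually free of it, while gene bodies and the space between genes usually carry it. In females 1 of the X chromosomes of each cell is silenced, and CpG-rich gene starts on the silenced copy are methylated, so X-linked starts sit at intermediate levels. The dentate gyrus is the part of the hippocampus whose stem cells form granule neurons in adult rodents, a process that enrichment is known to promote.

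The promoters below show what was read and what differed. They are given 5′ to 3′ as RefSeq has them on GRCm38.p6, from 250 bases before to 50 bases after a gene's start, with measured CpG dinucleotides in capitals. Utp14a, an X-linked gene for a nucleolar protein of ribosome assembly, stands for X-linked starts that were more methylated after withdrawal. Nes encodes nestin, the intermediate filament of neural stem cells, and Neurod2 a transcription factor of differentiating neurons, and both come from the list of neurogenesis genes.
Utp14a, chrX:48256684-48256983, plus strand: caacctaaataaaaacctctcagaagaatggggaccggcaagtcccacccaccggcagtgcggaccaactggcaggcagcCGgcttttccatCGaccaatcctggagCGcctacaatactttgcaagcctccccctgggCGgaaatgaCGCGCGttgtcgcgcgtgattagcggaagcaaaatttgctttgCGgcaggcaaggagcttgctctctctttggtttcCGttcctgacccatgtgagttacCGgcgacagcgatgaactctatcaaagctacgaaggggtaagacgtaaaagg
Nes, chr3:87970843-87971142, plus strand: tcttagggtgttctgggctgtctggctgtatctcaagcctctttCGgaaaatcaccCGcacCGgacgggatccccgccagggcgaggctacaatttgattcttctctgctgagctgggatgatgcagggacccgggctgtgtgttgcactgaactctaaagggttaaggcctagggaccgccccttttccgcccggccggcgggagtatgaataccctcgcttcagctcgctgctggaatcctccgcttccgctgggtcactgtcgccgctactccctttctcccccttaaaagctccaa
Neurod2, chr11:98329596-98329895, minus strand: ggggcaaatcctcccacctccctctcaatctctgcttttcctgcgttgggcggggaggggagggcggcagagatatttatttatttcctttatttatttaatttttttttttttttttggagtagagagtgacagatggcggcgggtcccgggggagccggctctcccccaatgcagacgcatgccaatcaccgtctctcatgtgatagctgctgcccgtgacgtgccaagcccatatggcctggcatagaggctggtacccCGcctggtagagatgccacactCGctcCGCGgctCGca
In the Utp14a promoter all 10 measured CpGs, of 21 in the window, had a higher mean after withdrawal, by 11.6 percentage points on average. At the CpG 102 bases before the start, every standard mouse had 0%, and the 4 withdrawal mice with a value had 28.6, 16.7, 30.8 and 50%. In the Nes promoter 3 of 18 CpGs were measured, and at the one 193 bases before the start 3 standard mice had 0% while 3 withdrawal mice had 53.8, 23.5 and 0%. In the Neurod2 promoter the 5 measured CpGs, of 16, had lower means after withdrawal, and much of that difference came from standard mouse 3, which had 58.3% at the CpG 47 bases past the start where both other standard mice and all 5 withdrawal mice had 0%. Of 32815 RefSeq promoter windows 20.6% held a measured CpG, so most promoters were not seen.

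Mean methylation was slightly higher after withdrawal in each of 38 summaries by level, location and chromosome, and among the chromosomes the difference was widest on the X. The summaries are overlapping cuts of the same sites in the same 10 mice, so they are not independent. At the sites measured in each of the 10 mice, the standard mice averaged 46.2, 45.6, 45.3, 46.0 and 46.4%, and the withdrawal mice 46.6, 47.0, 45.7, 46.4 and 46.4%. All withdrawal mice but mouse 3 lay above every standard mouse. The group means were 45.9% ± 0.442 (SD, n = 5) and 46.4% ± 0.468, a difference of 0.536 points (two-sided exact permutation p = 0.103), which is within the spread between mice. With single mice left out it ran from 0.387 points without standard mouse 3 (exact permutation p = 0.206) to 0.717 without withdrawal mouse 3 (exact permutation p = 0.0159). The mean was higher after withdrawal on all 20 chromosomes, by 0.344 to 1.74 points, but the chromosomes share the same mice. On the X, with 68.8% in standard and 70.6% in withdrawal mice, the exact permutation p was 0.0238 (adjusted over 20 chromosomes 0.265), and on each of the other chromosomes it was 0.0556 or more.

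**Figure D1:**
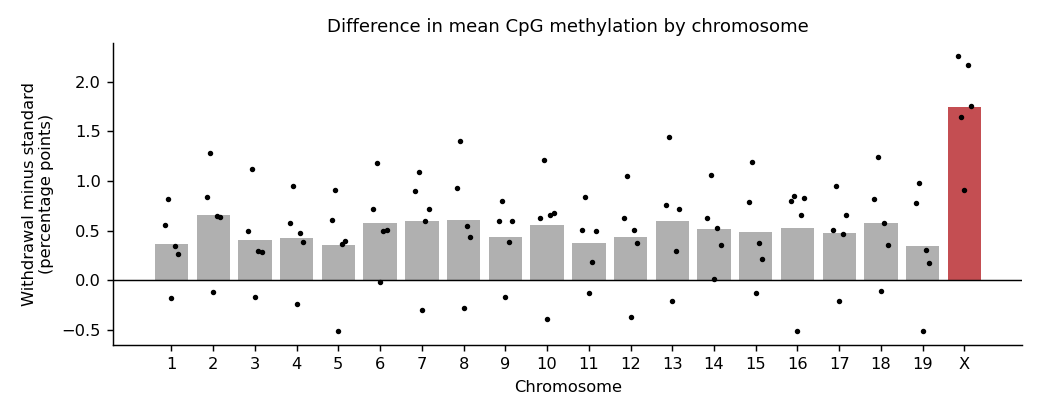
Withdrawal minus standard mean CpG methylation in percentage points (bars) for each chromosome, at sites measured in every one of the 10 mice; dots are single withdrawal mice minus the standard mean. Every bar lies above 0, from 0.344 to 1.74 points, and the X chromosome has the tallest.

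At X-linked gene starts (1054 sites) the standard mice averaged 39.3, 37.1, 36.1, 38.5 and 31.1%, and the withdrawal mice 40.7, 39.4, 38.8, 40.9 and 40.7%. Of the withdrawal mice 4 of 5 lay above every standard mouse, and standard mouse 5 was the lowest. The means were 36.4% ± 3.22 (SD, n = 5) and 40.1% ± 0.938, a difference of 3.70 points (exact permutation p = 0.0159, adjusted over 6 location classes 0.0476). Without standard mouse 5 the difference was 2.47 points (exact permutation p = 0.0238), and without withdrawal mouse 5 the exact permutation p was 0.0635. In X-linked gene bodies (1623 sites) the groups did not overlap: the standard mice had 69.3, 68.5, 68.6, 68.7 and 65.6%, and the withdrawal mice 70.7, 70.7, 70.1, 70.7 and 71.0%. The difference there was 2.50 points, from 68.1% ± 1.46 to 70.6% ± 0.344 (exact permutation p = 0.00794, the smallest that 5 against 5 mice allow; adjusted over the 6 classes 0.0476), and 1.88 points without standard mouse 5. X-linked sites between genes differed by 0.642 points (exact permutation p = 0.190).

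On the autosomes gene starts differed by 0.171 points (exact permutation p = 0.0873), gene bodies by 0.543 (p = 0.246 by the same permutation test) and sites between genes by 0.622 (p = 0.111, likewise by permutation). Gene-start sites with a mean of 20% to 80% on all chromosomes (2144 sites) averaged 41.2% ± 2.14 and 44.3% ± 0.922 (SD, n = 5), a difference of 3.13 points (exact permutation p = 0.0238, adjusted over 3 location classes 0.0714). The autosomal ones (1435 sites) averaged 45.3, 43.2, 43.1, 45.1 and 42.7% in standard and 47.2, 47.5, 44.8, 46.4 and 46.4% in withdrawal mice. Every withdrawal mouse but mouse 3 exceeded the highest standard mouse, and the difference was 2.58 points (exact permutation p = 0.0238, adjusted over the X-linked and autosomal sites of this class 0.0397). X-linked starts in that range differed by 4.24 points (exact permutation p = 0.0397). The split by X and autosomes was made after the chromosomes had been seen. Over all 38 such comparisons of mean methylation, adjusted together, none passed (smallest adjusted exact permutation p = 0.181). The difference between X and autosomes was not itself tested. Over the fewer sites with a value in all 15 mice, X-linked starts averaged 37.0% ± 2.98 in standard, 41.0% ± 0.594 in withdrawal and 40% ± 2.90 in the mice that stayed enriched, which ranged from 35.7 to 43.4%.

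**Figure D2:**
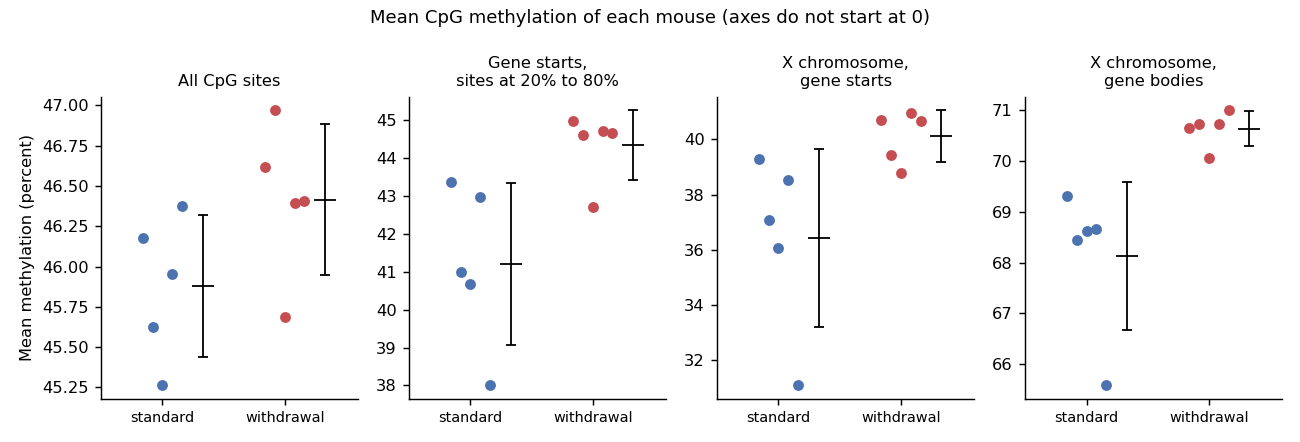
Mean CpG methylation of each mouse in percent (dots) with the group mean ± SD (n = 5, black), at sites measured in every one of the 10 mice; the axes do not start at 0. In X-linked gene bodies the withdrawal mice (70.1 to 71.0%) lie above all standard mice (65.6 to 69.3%), while over all CpG sites the groups overlap.

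Of 329 X-linked gene starts tested, 71.1% were higher after withdrawal, with a median difference of 3.55 points. For 4866 autosomal starts the values were 51.1% and 0.0879 points. These sets also differ in level, with a median in standard mice of 30.1% for X-linked and 3.69% for autosomal starts. At gene-start sites of 20% to 80% the differences were 4.24 points on the X and 2.58 on autosomes. Starts that share sites or lie close together are not independent. Ptchd1, a gene for a patched-domain membrane protein expressed in the brain and linked to intellectual disability when lost, was the X-linked gene with the smallest p when whole genes were tested. Its 39 sites at chrX:155605425-155624109, of which 23 lie within 1 kb of its 5′ end and the rest in its body, averaged 28.5, 23.5, 25.0, 28.1 and 20.7% in standard and 36.9, 41.5, 47.1, 44.1 and 36.4% in withdrawal mice. The groups did not overlap, 37 of the 39 sites had a higher mean after withdrawal, and both strands were higher, by 21.8 points over 26 plus-strand and 7.68 over 13 minus-strand sites. The difference was 16.0 points, or 0.94 ± 0.15 (SE) on the log2 ratio scale used for testing (limma adjusted p = 0.174, unadjusted 4.46e-05). The enriched mice averaged 29.5% ± 7.29 there.

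A few further X-linked starts, chosen after their values were seen, give values in single mice. The Utp14a start (14 sites, chrX:48256326-48256933) had 12.4, 15.7, 13.8, 14.9 and 8.37% in standard and 19.6, 25.8, 21.1, 20.4 and 25.8% in withdrawal mice, with no overlap (limma unadjusted p = 0.0100, adjusted 0.929). At the G6pdx start (6 sites, chrX:74428838-74429727), the gene of the first enzyme of the pentose phosphate pathway, 4 standard mice had 12.4, 33.5, 29.7 and 32.9% and the withdrawal mice 57.8, 25.8, 79.5, 44.9 and 58.7%. The groups overlap through withdrawal mouse 2. The Igbp1 start (15 sites, chrX:100493745-100494443) had 21.1% ± 10.2 in standard and 36.7% ± 6.22 in withdrawal mice, and all 15 sites were higher. The same sites were also counted as the start of Awat2 by the end of its gene record, but the RefSeq promoter windows of Awat2 lie elsewhere (chrX:100442668-100442967 and chrX:100412538-100412837). X-linked starts also went the other way: at an unadjusted limma p under 0.05, 20 of 329 were higher and 3 lower, against 130 and 91 of 4866 autosomal starts. Pcdh11x (6 sites) had 49.2, 49.8 and 47.6% in 3 standard and 4.17, 37.2 and 15.6% in 3 withdrawal mice. Rab9 (15 sites) had 32.4, 41.1 and 42.1% in 3 standard mice and 18.6, 29.2, 13.1, 27.6 and 21.1% in the withdrawal mice. Neither gene showed overlap, but a gap is easier to reach with so few mice than with whole groups. Zbtb33, which encodes the methyl-CpG binding protein Kaiso, had 78.0, 61.0 and 70.0% in 3 standard mice and 44.6, 34.6, 21.3, 40.8 and 70.9% in the withdrawal mice, at 3 sites. All 3 had a limma adjusted p of 0.929.

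No CpG site, 1 kb window, gene start or gene body passed an adjusted p of 0.05. Limma called 0 of 326004 sites (percent called 0%; at an unadjusted p under 0.05, 4.24%), 0 of 45727 windows (0%; 5.2%), 0 of 5195 gene starts (0%; 4.7%) and 0 of 8975 gene bodies (0%; 5.47%), with a lowest adjusted p of 0.872, 0.678, 0.699 and 0.102 in that order. Among the features under an unadjusted 0.05 more were higher than lower after withdrawal: 7573 (2.32%) against 6243 (1.92%) sites, 1357 (2.97%) against 1019 (2.23%) windows, 150 (2.89%) against 94 (1.81%) gene starts and 294 (3.28%) against 197 (2.19%) gene bodies. Median differences over all features of each kind were 0.650, 0.398, 0.199 and 0.496 points. When all sites of a gene were averaged as 1 feature, a step added after the data had been seen, limma called 1 of 10720 genes (0.00933%; at an unadjusted p under 0.05, 5.32%), Lrg1.

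Lrg1 encodes leucine-rich alpha-2-glycoprotein, a secreted protein that acts on blood vessels. Its 6 sites lie in the gene body at chr17:56120448-56120523, all on the plus strand. Standard mice 1, 3, 4 and 5 had 15.6, 15.3, 11.9 and 11.7%, and the 3 withdrawal mice with enough values had 0% at every site. The groups did not overlap, but 3 of the 10 mice had too few values, and a gap is easier to reach with fewer mice. The difference was -13.6 points (log2 ratio -2.09 ± 0.19 SE, limma adjusted p = 0.0385 as a whole gene). Tested as a gene body the same 6 sites were not called, and the lowest limma adjusted p of any gene body was 0.102. The whole-gene feature lost the call without any 1 of the 5 standard mice (limma adjusted p = 0.0540 to 0.355), and 3 enriched mice had 18.1, 12.5 and 37.2%.

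Tex21, named for its expression in testis, had 13 sites in its body at chr12:76215187-76235558. The standard mice had 53.3, 52.1, 49.4, 63.8 and 49.6%, and the withdrawal mice 75.7, 70.2, 69.4, 70.5 and 70.1%. The groups did not overlap, 11 of 13 sites were higher and so were both strands, by 9.36 points on the plus and 22.4 on the minus strand (17.5 points for the gene, limma adjusted p = 0.308). Ccdc186, a gene for a coiled-coil protein of dense-core vesicle formation, went the other way at 3 sites (chr19:56811836-56811897), from 64.0, 73.6, 60.6, 73.8 and 74.4% to 52.2, 41.8, 42.8, 49.1 and 49.7% (limma adjusted p = 0.237). Every mouse had a value at each Ccdc186 site, and at 11 of the 13 Tex21 sites.

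Other gene bodies with small p-values were Mfge8, a bridging protein in the clearance of dying cells (99.0% ± 2.08 in 4 standard, 80.9% ± 3.37 in 4 withdrawal mice), Nos2, the inducible nitric oxide synthase (82.4% ± 7.15 and 63.1% ± 2.57, n = 5 each), and Grhl3, a transcription factor of epithelia (21.4% ± 3.27 and 34.4% ± 5.0, n = 5 each). Their limma adjusted p-values were 0.187, 0.682 and 0.684. The whole-gene fit added Jsrp1, whose sites overlap Amh, the anti-Müllerian hormone gene (27.8% ± 4.30 and 14.4% ± 3.07), and Nkpd1 (6.12% ± 2.0 and 17.4% ± 4.50), with limma adjusted p-values of 0.223 and 0.286. Of 5668 gene bodies with values in all 10 mice, 58 (1.02%) had groups that did not overlap, 42 (0.741%) higher and 16 (0.282%) lower after withdrawal.

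The 6 gene starts with the smallest p-values lay near 0%, near 10% or above 70% in standard mice. Lamc3, a laminin chain gene whose sites also lie at the start of Aif1l, had 0, 2.87 and 0% in 3 standard mice and 13.2, 6.97, 15.4, 9.62 and 9.62% in the withdrawal mice. Sdr42e1, a dehydrogenase family gene, had 1.73% ± 3.44 (n = 5) and 16.8% ± 7.44 (n = 3), and Mpzl2, an adhesion gene, 0% in 3 standard mice and 9.25% ± 3.46 in 4 withdrawal mice. Lower values were found at Chrna3, a nicotinic receptor subunit gene, with 17.8, 14.6, 7.42, 5.04 and 9.90% in standard and 3, 2.20, 0.347 and 0% in 4 withdrawal mice. Csf2, the gene of the cytokine GM-CSF, had 73.7% ± 17.4 (n = 3) and 29.8% ± 11.4 (n = 4), and Lipe, the gene of hormone-sensitive lipase, had 100% in 4 standard mice and 86.4% ± 6.03 in 5 withdrawal mice. All 6 had a limma adjusted p of 0.699, and none of them had values from all 10 mice.

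Among the neurogenesis and granule neuron genes 10 of 33 starts and 20 of 33 bodies could be tested, and none passed the adjusted threshold by limma. At an unadjusted p under 0.05, where 4.7% of all starts stood, 2 of 10 starts were higher and 1 lower, and the median over the 10 was -0.250 points against 0.199 for all starts. Hopx, a gene expressed in quiescent neural stem cells of the dentate gyrus, had the clearest gap of the list. Its 9 sites within 1 kb of the 5′ end (chr5:77114529-77114826) averaged 8.74, 10.9, 17.1, 15.7 and 12.0% in standard and 32.4, 38.6, 23.3, 29.2 and 21.7% in withdrawal mice. No withdrawal mouse overlapped the standard group, as at 0.828% of the 2174 gene starts with values in all 10 mice. The difference was 16.2 points (log2 ratio 1.21 ± 0.30 SE, limma unadjusted p = 0.00103, adjusted 0.699). It lay mostly on the minus strand, where 6 sites differed by 20.6 points, against 4.76 at 3 plus-strand sites, and the enriched mice ranged from 10.6 to 30.7%.

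At the Nes start, the 3 promoter CpGs printed above, 3 standard mice averaged 0% and 3 withdrawal mice 31.8, 7.84 and 0%. The Neurod2 start (8 sites) had 32.5, 14.4 and 0% in 3 standard mice and 6.58, 0, 4.81, 0 and 0% in the withdrawal mice. Both groups of values overlap. Of the 20 bodies, 1 was higher and 2 lower at an unadjusted p under 0.05, where 5.47% of all bodies stood. Eomes, the gene of the intermediate progenitor factor Tbr2, had 54.2, 40.7, 37.2 and 40% in 4 standard and 24.3, 35.8, 36.5 and 17.0% in 4 withdrawal mice (3 sites, limma adjusted p = 0.871). These values did not overlap, but a gap is easier to reach with fewer mice than with whole groups. Tubb3, a neuronal tubulin gene, had 12.5, 20.6, 23.3, 25.1 and 36.6% against 17.6, 9.80, 10.7, 12.1 and 12.9% at 4 sites, with standard mouse 1 inside the withdrawal range. Hes5, a Notch target of stem cells, had 2.68% ± 1.95 (n = 4) and 8.20% ± 4.50 (n = 3). Prox1, the identity factor of granule neurons, differed by 3.34 points over 36 body sites (limma adjusted p = 0.911).

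**Figure D3:**
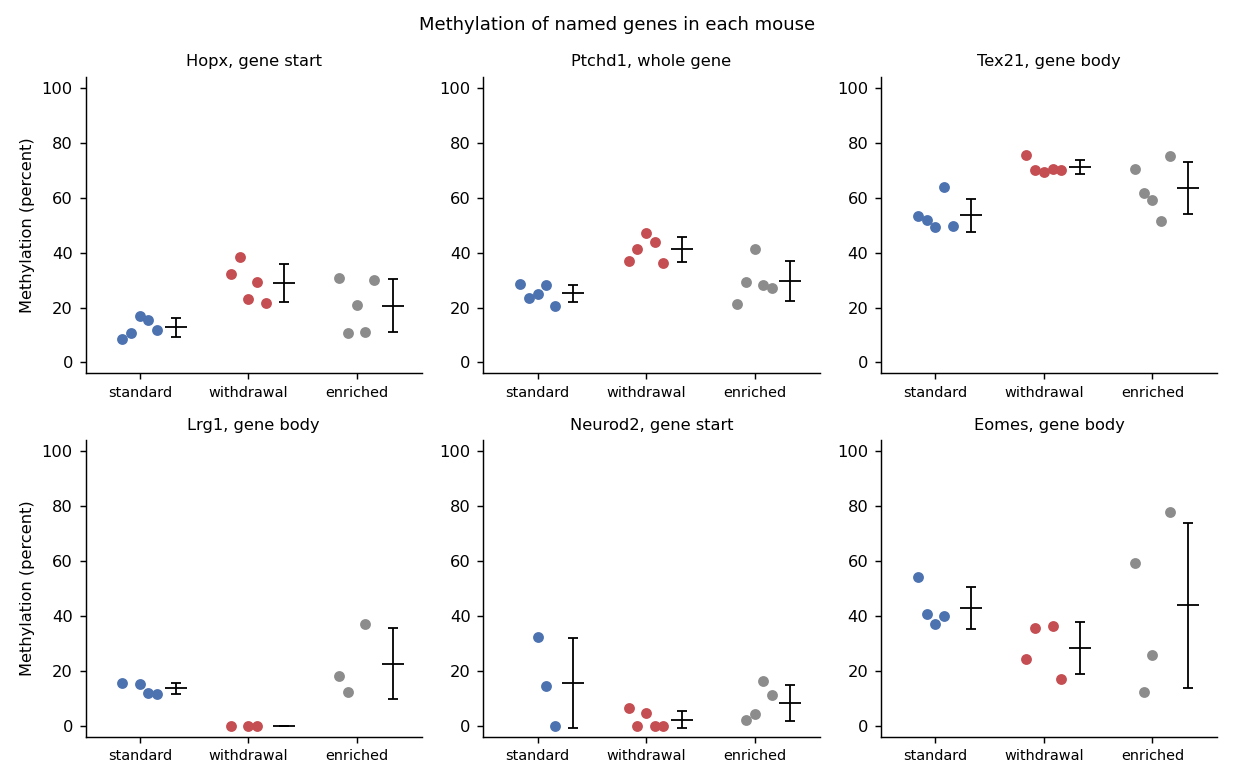
Methylation in percent of 6 named genes in each standard, withdrawal and enriched mouse (dots), with the group mean ± SD; mice without enough sites have no dot. Standard and withdrawal mice do not overlap at Hopx, Ptchd1 and Tex21, which are higher after withdrawal, or at Lrg1 and Eomes, which are lower. At Hopx, Ptchd1 and Tex21 the enriched mice spread over both ranges, and at Lrg1 they lie above the withdrawal mice.

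Of the activity and plasticity genes, the immediate early genes and their regulators, 7 of 32 starts and 18 of 32 bodies were tested and none passed by limma. The body of Fosl2, an AP-1 factor gene, had 12.3, 20.8, 20.7, 15.9 and 15.3% in standard and 23.8, 30.0, 25.1, 20.2 and 24.9% in withdrawal mice over 19 sites (limma unadjusted p = 0.00699, adjusted 0.859), with withdrawal mouse 4 inside the standard range. The start of Nptx2, a secreted protein that clusters AMPA receptors at synapses, had 6.28% ± 2.40 and 2.59% ± 1.99 over 29 sites. Arc, which drives AMPA receptor removal, had 2.35% and 5.58% at its start (19 sites), and the Fos body 66.2% and 49.3% at 3 sites, and neither reached an unadjusted 0.05. The list's median difference was -0.964 points at starts and 1.06 in bodies.

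Glutamate receptor and scaffold genes had the most tested bodies, 34 of 41, of which 24 were higher after withdrawal and 1, Gria3, stood under an unadjusted 0.05. Of all bodies 56.0% were higher and 5.47% stood under that p. Gria3, the X-linked gene of an AMPA receptor subunit, had 82.1, 93.1, 82.2, 77.7 and 77.0% in standard and 90.1, 86.0, 92.8, 89.3 and 92.6% in withdrawal mice (7 sites, limma adjusted p = 0.894), and standard mouse 2 was above all withdrawal mice. Its start, with 14 sites, had 17.0% and 24.8%. The start of Grin2a, an NMDA receptor subunit gene, had 0% in 3 standard mice and 8.57, 2.50 and 2.55% in 3 withdrawal mice. The median of the 34 bodies was 1.17 points against 0.496 for all bodies.

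Growth factor genes had 2 of 8 starts lower at an unadjusted 0.05, where 1.81% of all starts stood, while 5 of the 8 were higher by their means and the list's median was 1.61 points. Ntf3, the gene of neurotrophin-3, had 16.4, 21.2, 18.9 and 18.7% in 4 standard mice and 16.5, 12.6, 2.63, 9.62 and 12.1% in the withdrawal mice at 8 sites, with withdrawal mouse 1 at the lower edge of the standard range. Kdr, the VEGF receptor gene, had 9.35, 9.76 and 10.2% against 0, 6.39 and 4.40%, and both have a limma adjusted p of 0.929. The measured CpGs in the promoter windows of these genes went the other way on average. They were higher after withdrawal by 0.734 points (2 sites) and 2.33 points (7 sites) for Ntf3, and by 0.694 points (3 sites) for Kdr. No start or body of the stress hormone axis (7 and 8 tested) stood under an unadjusted 0.05, and Nr3c1, the glucocorticoid receptor gene, had 7.70% and 12.1% over 20 body sites (limma unadjusted p = 0.0904). Of the DNA methylation machinery, Zbtb33 was lower and Zbtb4, another methyl-CpG binding protein gene, higher at their starts (0% in 3 standard mice; 19.3, 0, 8.89 and 4.44% in 4 withdrawal mice), and the body of the demethylation enzyme gene Tet3 had 11.3% and 15.3% (limma unadjusted p = 0.0642).

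Imprinted genes, which are methylated on 1 parental copy, had starts at intermediate levels (median 23.5% in standard mice), and none of 15 starts stood under an unadjusted 0.05. The shared start of Peg10 and Sgce had 23.3% in standard and 44.4% in withdrawal mice over 14 sites, and that of Nap1l5 31.9% and 50.9% over 23 sites, while that of Mcts2 had 34.8% and 22.8% over 21 sites. Of the 15 starts 9 were higher, from -12.0 to 21.1 points with a median of 3.16, and the shared start counts under both of its genes. The bodies of Kcnk9, a potassium channel gene, and Phlda2, a growth-restraining gene, were higher at an unadjusted 0.05. Kcnk9 had 69.3, 62.9, 69.4, 72.3 and 64.1% in standard and 82.9, 75.4, 73.0, 76.1 and 77.6% in withdrawal mice, without overlap (limma adjusted p = 0.847).

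**Figure D4:**
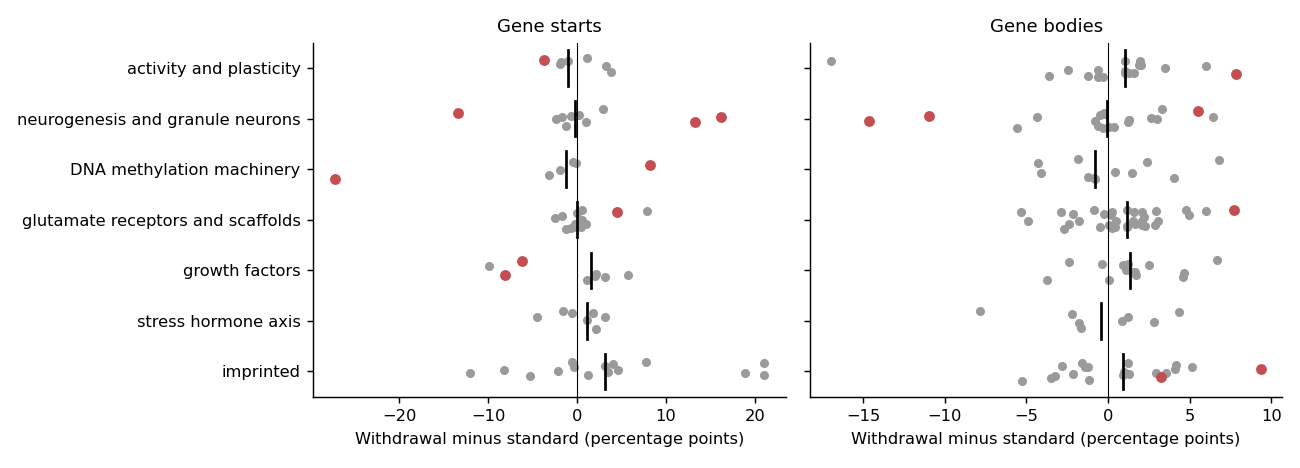
Withdrawal minus standard methylation in percentage points for each tested member (dot) of 7 gene lists, at gene starts (left) and in gene bodies (right); red dots have an unadjusted limma p under 0.05 and black bars are list medians. Medians lie between -1.19 and 3.16 points, and members spread to both sides of 0.

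Markers of other cell types bear on the mixture of cells. Of the neuron markers 4 of 5 bodies were tested, and Map2 and Tubb3 were lower at an unadjusted p under 0.05, where 2.19% of all bodies stood. Map2, a dendritic microtubule protein gene, had 68.9, 64.8, 53.6, 67.9 and 75.4% in standard and 44.9, 57.6, 58.7, 58.7 and 57.5% in withdrawal mice over 12 sites, with standard mouse 3 among the withdrawal mice. Rbfox3, the gene of the neuronal nuclear antigen NeuN, differed by 0.636 points over 155 body sites. Of the microglia markers 3 of 5 bodies were tested, and Csf1r was lower (99.4% ± 0.687, n = 4, and 94.7% ± 2.08, n = 3) while P2ry12 and Tmem119 differed by 2.57 and -3.09 points. The tested bodies of granule neuron (3), other hippocampal neuron (4), interneuron (5), astrocyte (3), oligodendrocyte (4) and endothelial (3) markers ranged from -4.47 to 6.84 points, and none stood under an unadjusted 0.05. The part of cell mixture in the results above was not tested. The marker starts that could be tested, 13 over all cell types and none of microglia, ranged from -7.26 points (astrocyte) to 3.45 points (interneuron), and none stood under an unadjusted 0.05.

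Windows of 1 kb with small p-values lay mostly inside genes and held few sites. The smallest p was at 4 minus-strand sites inside Gcn1, a gene of the amino acid stress response (chr5:115605257-115605316), with 43.1, 83.2, 85.9 and 86.7% in 4 standard and 0, 8.82, 0 and 22.2% in 4 withdrawal mice (limma unadjusted p = 3.23e-05, adjusted 0.678). At the start of Ddr1, a collagen receptor gene (chr17:35703962-35704000), the standard mice had 0, 3.79, 0, 0 and 0% and the withdrawal mice 10.7, 11.9, 24.7, 9.88 and 12.6%, while the enriched mice averaged 13.8% ± 9.45. In the Ddr1 promoter window at chr17:35704550-35704849 the 4 measured CpGs were at 0% in every mouse of both groups with a value. Inside Adamtsl3 (chr7:82556866-82556905) the means were 1.54% ± 3.44 and 43.8% ± 26.5 over 4 plus-strand sites, with overlap between standard mouse 2 and withdrawal mouse 3. Inside Aox2, an aldehyde oxidase gene (chr1:58299903-58299925), 3 standard mice had 82.2% ± 4.36 and the withdrawal mice 99.7% ± 0.678. The other 2 of the 6 windows were the Mfge8 sites above and a window 67098 bases from Sdk1 (99.3% ± 1.13 and 59.8% ± 13.8, n = 3 each).

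Of 21780 windows with values in all 10 mice, 207 (0.95%) had groups that did not overlap, 121 (0.556%) higher and 86 (0.395%) lower after withdrawal. The window inside Bcl11a, a zinc-finger factor gene of neurons and blood cells, had 6 sites on both strands (chr11:24114277-24114412). Its standard mice had 76.9, 79.3, 94.4, 72.5 and 71.1%, its withdrawal mice 47.1, 61.0, 32.7, 45.3 and 56.9%, and its enriched mice 50.4% ± 3.70. All 6 sites were lower, by 40.3 points on the plus and 22.5 on the minus strand (limma unadjusted p = 0.00166, adjusted 0.864). The 5 others of the 6 widest had differences of -33.8 (inside Fbxl2), -33.8 (chr5:104149412-104149572), 33.4 (chr1:30793155-30793563), 31.8 (chr10:35521441-35521516) and 28.4 points (inside Lrrk1).

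Single sites with the smallest p were mostly at or near 100% in all mice of 1 group with a value. Inside Mgmt, a DNA repair gene, the minus-strand site at chr7:136989223 had 62.5, 74.1, 62.8, 83.6 and 70.6% in standard mice and 100% in all 5 withdrawal mice. At chr2:181896650, 25820 bases from Polr3k, the values were 71.4, 50, 55.6, 76.7 and 50.9% against 100, 100, 100, 95.8 and 100%. At chr13:44321610, 409164 bases from Jarid2, 4 standard mice had 100% and 4 withdrawal mice 52.6, 35.1, 25.0 and 48.3%. Further sites lay inside Rreb1 (60.2% ± 4.95, n = 3, and 100% in 5) and 3759 bases from Gpc6 (81.2% ± 22.7, n = 3, and 0% in 4). Sites with values in all 10 mice whose groups did not overlap made up 0.515% of 129232.

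With sites measured in all 10 mice alone, limma called 1 gene body, Fgf3, a fibroblast growth factor gene, and the genes named from this view were chosen after their values were seen. Its 3 minus-strand sites (chr7:144839755-144839829) were at 0% in each standard mouse and averaged 13.3, 8.33, 23.0, 12.7 and 20.6% in the withdrawal mice (15.6 points, adjusted p = 0.0134). Tested as a 1 kb window the same sites had a limma adjusted p of 0.0748, and as a whole gene of 4 sites 0.118, and neither was called. The single sites differed between mice: withdrawal mouse 5 had 61.9% at the second and 0% at both others, mouse 1 had 40% at the third alone, and mouse 3 had 35.7, 33.3 and 0%. In the enriched mice the average was 22.9, 4.17, 0, 1.15 and 0%. In the same view the start of Sptb, the erythroid spectrin gene, had 6.60% ± 5.35 and 23.8% ± 8.95 over 5 sites, with both strands higher by 14.8 and 20.7 points, and that of Lpcat1, a phospholipid enzyme gene, had 2.16% ± 2.48 and 13.7% ± 6.09 over 8 sites, all higher (limma adjusted p = 0.513 for both). The 2 measured CpGs of the Sptb promoter window, not complete in all 10 mice, were at 0% in every mouse of both groups with a value.

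How far a difference was shared between neighbouring cytosines depended on the strand. At the 29826 CpGs with both cytosines measured, the methylation level of the plus and minus cytosine correlated at r = 0.973 across CpGs, but the difference between the groups at r = 0.0240, and at 0.0374 over the 3974 with values in all 10 mice. At 1023 CpGs the plus cytosine differed by 20 points or more (27.6 on average). The minus cytosine there had the same sign at 521 (50.9%), with a mean of 0.435 points in the direction of the plus cytosine. Sites 2 to 10 bases apart correlated in their group difference at r = 0.305 on 1 strand and 0.0303 on opposite strands, and sites 51 to 100 bases apart at 0.165 and 0.0168. Over more than 100 and up to 500 bases the values were 0.0122 and 0.0118. Sites on 1 strand within a fragment are covered by the same reads, the opposite strand by others, and CpGs are not independent replicates, so these correlations are descriptions. In 12330 windows with 3 or more sites on each strand the level correlated at r = 0.971 between strands and the group difference at 0.0490.

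**Figure D5:**
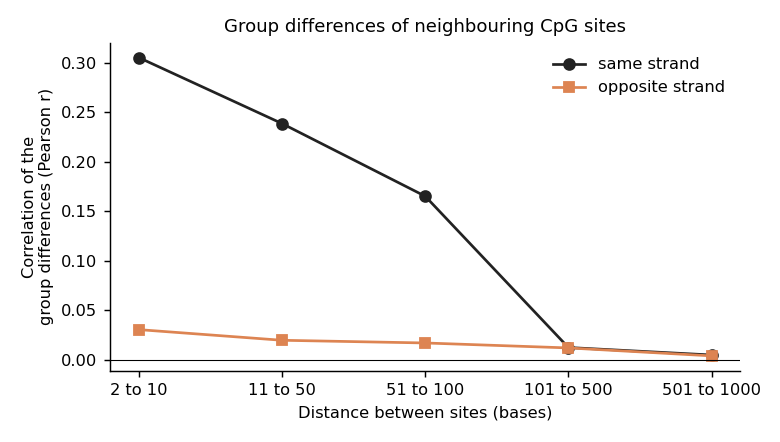
Pearson correlation across pairs of CpG sites of the group difference (withdrawal minus standard), by distance in bases, for pairs on the same strand (black circles) and on opposite strands (orange squares). Same-strand pairs start at 0.305 and reach 0.0122 beyond 100 bases, and opposite-strand pairs stay at or below 0.0303.

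Withdrawal mice resembled each other slightly more than standard mice did, though not past the threshold. The mean absolute difference between 2 mice over the 156497 sites was 10.4 points among standard, 9.06 among withdrawal and 9.76 between groups. Pairs within the withdrawal group were 1.30 points closer (two-sided exact permutation p = 0.0714), and between-group pairs exceeded the mean of both within-group values by 0.0490 points (one-sided exact permutation p = 0.0556). Standard mice averaged 9.90 to 10.7 points from the others of their group and withdrawal mice 8.46 to 9.58, with no overlap. The closest was withdrawal mouse 4, which also had the most sites with a value, and the next to farthest was standard mouse 1, which had the fewest. Every standard mouse lay nearer on average to the withdrawal mice (9.09 to 10.2 points) than to the other standard mice. Every withdrawal mouse lay farther from the standard mice (9.06 to 10.2 points) than from the others of its group. The part of depth in these distances was not tested. With single mice left out, the within-group difference ran from -1.64 points without withdrawal mouse 3 (exact permutation p = 0.0397) to -0.891 without withdrawal mouse 4 (exact permutation p = 0.127). The between-group excess ran from 0.0990 without withdrawal mouse 3 (exact permutation p = 0.0159) to 0.0215 without withdrawal mouse 4 (exact permutation p = 0.206).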

How the data were processed

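The data are RRBS of micro-dissected dentate gyrus. The deposited values are the percent of methylated reads per cytosine, strand and mouse. Per the submitters' processing notes, the tools were Trim Galore 0.4.0, cutadapt 1.8.1, Bismark 0.16.1 and methylKit 1.5.2, with build mm10. Coverage and its filter are not given in the sources used here, so the depth behind each value is unknown. CpG rows are those before the chromosome column restarts. This was checked on RefSeq promoters of GRCm38.p6, where 100% of 40642 positions before the restart lay at CG and 0% of 118360 after it.

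Each mouse was grouped by its GEO labels. Sites entered with 3 or more values in each group. A range of at least 5 points over the 10 mice was required of each site or feature tested, for features in their averaged values. Features (1 kb windows, gene starts, gene bodies, whole genes) needed 3 sites, and each mouse's value was the mean of its site values after centring each site, given for mice with at least 50% of the sites. Of 21631 protein-coding genes 17274 have a strand in the table used, and the others count both ends as starts. Tests were limma 3.58.1 in R 4.3.3 on log2((percent + 5)/(105 - percent)), Benjamini-Hochberg adjusted over all features of a kind and called under 0.05. Single values per mouse were compared by exact permutation over 252 arrangements. The fit was tested on simulated data. Other tools were Python 3.11.15 and pandas 2.3.3.

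Genes named are the 6 smallest p-values of each kind, the 6 widest windows without overlap, list genes under an unadjusted 0.05, and others said to be chosen later. Some list and marker genes that did not reach an unadjusted 0.05 are given as examples. One of the 6 sites is not reported here. The members and lists were chosen with earlier results of these data known. Alternatives were other offsets, scales, filters, fits and left-out mice.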

Additional observations from a re-analysis of the deposited data

Results flagged for a closer look

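In 19 of 155 groups of 4 or 5 mice (12.3%), 1 mouse stood apart from the others by Dixon's criterion, which chance meets in about 1 of 20 groups. Several groups share sites, and many lie at 0% or 100% in all other mice.

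At the minus-strand site chr2:181896650 withdrawal mouse 4 had 95.8% and the others 100%. In the Aox2 window withdrawal mouse 2 had 98.5% and the others 100%, and in the Mfge8 sites, taken as window, gene body and whole gene, standard mouse 3 had 95.8% and the others 100%. In the Adamtsl3 window standard mouse 2 had 7.69% and the others 0%. In the Ddr1 window standard mouse 2 had 3.79% where the others had 0%, and withdrawal mouse 3 had 24.7% where the others had 9.88 to 12.6%. In the Gcn1 window standard mouse 1 had 43.1% against 83.2 to 86.7%.

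At the Sdr42e1 start standard mouse 3 had 7.85% against 0 to 0.781%. In Tex21, as gene body and as whole gene, standard mouse 4 had 63.8% against 49.4 to 53.3% and withdrawal mouse 1 had 75.7% against 69.4 to 70.5%. In the Map2 body withdrawal mouse 1 had 44.9% against 57.5 to 58.7%, and in Phlda2 standard mouse 4 had 0.745% where the others had 0%.

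Among the means per mouse, withdrawal mouse 3 had 42.7% at gene-start sites of 20% to 80% (others 44.6 to 45.0%) and 47.0% on chromosome 16 (others 48.2 to 48.4%). Standard mouse 5 had 65.6% in X-linked gene bodies (others 68.5 to 69.3%).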

How the results depend on the processing

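No result changed direction under any alternative. Of 924 values for 54 named features, 910 kept their side of the threshold, 4 gained and 10 lost the call. Alternatives in which a feature could no longer be tested are not among the 924. No site (18 alternatives), window (21) or gene start (20) was called. Gene bodies went from 0 called to 1 with an offset of 1 point (Lrg1, limma adjusted p = 0.0445), without the range filter (Lrg1, 0.0201), with 5 sites or more (Lrg1, 0.0478) and with sites complete in all 10 mice (Fgf3, 0.0134), and ranged from 0 to 1 with 1 mouse left out (Apool without withdrawal mouse 1, 0.0368). The 1 whole-gene call became 0 on the percent scale, with a range of 10 points, with complete sites, with all 15 mice in the fit, with the replicate block and with plain means, and ranged from 0 to 1 with 1 mouse left out. It was then 0 without standard mouse 1, 2, 3 or 5 or withdrawal mouse 1, 3 or 4, and without standard mouse 4 the call was Tex21 (limma adjusted p = 0.0353). With complete sites, or without withdrawal mouse 1, 3 or 4, Lrg1 could not be tested, because too few sites or mice with values remained. The cause of the other changes was not tested.

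With 1 mouse left out, the difference over all sites ranged from 0.387 to 0.717 points, at X-linked gene starts from 2.47 to 4.59, in X-linked gene bodies from 1.88 to 2.75, and at gene-start sites of 20% to 80% from 2.30 to 3.61. The between-group excess in distance ranged from 0.0215 to 0.0990 points (0.0657 without standard mouse 3, exact permutation p = 0.0476) and the difference between the within-group distances from -1.64 to -0.891 points (-1.60 without standard mouse 3, exact permutation p = 0.0317).

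Replicate numbers did not pair the mice: deviations of same-numbered mice correlated at -0.0166 to 0.0185, other pairs at -0.0153 to 0.0125, and 2 of 5 standard and 2 of 5 withdrawal mice were closest to their own number. With the replicate block the differences were 3.70 points at X-linked gene starts, 2.50 in X-linked gene bodies and 3.13 at gene-start sites of 20% to 80%, each with an exact sign-flip permutation p of 0.0625, the smallest that 5 pairs allow.

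Without read counts a low value and a shallow one cannot be told apart, and no interval can be given for a single site.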
